A study of Mus musculus with 6 samples.

Results

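The set of 10 imprinted genes described here lies outside the Igf2 cluster and was read in small intestinal crypts: Peg3, Mest, Plagl1, Grb10, Dlk1, Ndn, Snrpn, Gnas, Impact and Sgce. A probe belonged to the set where the RefSeq transcript that the array file prints for it maps to one of these genes. This gave 11 probes for 7 of the 10 genes, of 41006 probes and 12362 named genes in all. Mest had 3 probes, Impact and Snrpn had 2 each, and Dlk1, Ndn, Plagl1 and Sgce had 1 each. Peg3, Grb10 and Gnas were paired with no probe and were not analysed here.

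Each of 6 mice was hybridised to its own 2-colour Agilent array, with crypt RNA labelled with Cy3 and Universal Mouse Reference RNA with Cy5. LOI(+) mice (n = 3) inherited from their H19+/- mothers a deletion of the H19 gene (3 kb) with 10 kb upstream that holds the differentially methylated region. LOI, loss of imprinting, means that the maternal Igf2 copy is active in them, and LOI(-) mice (n = 3) are the wild-type offspring of the same kind of cross, in which it is silent. The deletion is carried by every cell of the animal, and all mice were 120 days old and of strain C57BL/6 (C57BL/6J in the study's design). Of the 6, 4 are labelled male, and LOI(-) 3 and LOI(+) 2 carry no sex label. Crypts were cut from frozen sections of the middle of the small intestine by laser capture, 5000 to 13000 per mouse, and the reference pools RNA of 11 cultured cell lines.

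An imprinted gene is read from only one of its parental copies in some or all tissues, because a mark set in the egg or the sperm, usually DNA methylation, keeps the other copy silent. Most imprinted genes act in fetal growth, placenta, metabolism or brain, and many fall silent in tissues after birth. Most genes of this set are expressed from the paternal copy. Grb10 is expressed from the maternal copy in most tissues, and Gnas makes several transcripts of differing parental origin. The arrays read the summed RNA of both copies, so they show levels and not the parental origin of a transcript.

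The array files held signals of similar brightness, with a median Cy3 signal of 552 to 602.7 scanner units on the 6 arrays. The log2 ratios of an array correlated with those of the other arrays, across probes, with a mean r from 0.948 (LOI(+) 2) to 0.963. LOI(+) 2 also had the most features marked as outliers, 146 against 14 at the fewest. H19 itself was not analysed here, so the deleted gene does not check the labels. The single Igf2 probe differed between the groups by -0.0024 ± 0.058 (LOI(+) minus LOI(-), log2, SE; adjusted p = 0.997 in limma), with Cy3 signals of 622.1 to 728.1. Of 17 crypt epithelium marker genes with a probe, all 17 were above the negative controls on every array, as were all 12 fibroblast markers with a probe and 91.4% of all probes, so this limit does not tell the cell types apart. Against the reference (adjusted p under 0.05 in limma), 13 of the 17 crypt markers were higher and 1 lower in LOI(-) crypts. Of the 12 fibroblast markers 0 were higher and 10 lower, beside 25.4% and 28.7% of all probes. Other lists were not lowered in this way. Higher and lower were 3 and 2 of 8 immune, 3 and 1 of 9 endothelium, and 2 and 4 of 8 smooth muscle markers. For neuron and glia they were 2 and 3 of 9, and for enteroendocrine cells 13 and 1 of 15.

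Each probe is a 60-base DNA strand, and where a gene had several, the probes are numbered here by falling mean Cy3 signal. The first 30 bases are shown for Mest, to set overlapping probes beside a separate one, for Snrpn, whose probes gave different ratios, and for Dlk1, the gene farthest from the reference. The Impact probes are not printed. Capitals are not used, since no single base carries the result.

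Dlk1 probe: tacacatattgtcttgtgttgctggtgcca
Mest probe 1: gagcgcttgcttctgtgtccatccccattc
Mest probe 2: tgtccatccccattcattttatctatgggc
Mest probe 3: aaatagacattggcgtaaatacagtgttct
Snrpn probe 1: gtgaaattgtgtacctgcaagctttttgac
Snrpn probe 2: ctataggatgagatgtatcctgcaagatgg

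Mest probes 1 and 2 share a run of 45 bases and therefore read nearly the same stretch of the transcript, so they are not independent readings. Mest probe 3 shares no run over 6 bases with them. The 2 Snrpn probes share no run over 8 bases, and the 2 Impact probes none over 6. Besides the Mest pair, 0 of the 41006 probes shared a run of 20 bases with a probe of the set on either strand.

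The starts of the genes differ in CpG content, the dinucleotide at which imprints are written. RefSeq (GRCm38.p6) gave 17 promoters of 300 bases for 8 of the 10 genes, Impact and Sgce not among them. They held 2 to 45 CpG dinucleotides with a median of 13, beside a median of 7 over 32851 promoters. Some of the 17 windows overlap and were each counted, those of Mest with 17 and 17 CpG dinucleotides and of Gnas with 27 and 28. The motif TGCCGC, the core of the sequence bound by the imprint-protecting factor ZFP57 when methylated, was searched on both strands. It was found in 5 of the 17 promoters, of Grb10, Mest, Plagl1 and Snrpn, and in 11.6% of all promoters. For Mest 2 of the 5 are windows that start 3 bases apart and hold the same matches. Mest shows how starts of one gene can differ, and the 250 bases before an outer and an inner start of the gene are given with their CpG dinucleotides in capitals.

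Mest outer start, GRCm38.p6 chr6:30733256-30733505, plus strand: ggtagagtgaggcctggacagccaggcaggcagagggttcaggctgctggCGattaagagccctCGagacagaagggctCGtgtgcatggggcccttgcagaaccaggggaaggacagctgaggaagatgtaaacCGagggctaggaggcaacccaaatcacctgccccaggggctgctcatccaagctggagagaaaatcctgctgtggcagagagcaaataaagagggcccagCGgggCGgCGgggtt
Mest inner start, GRCm38.p6 chr6:30737800-30738049, plus strand: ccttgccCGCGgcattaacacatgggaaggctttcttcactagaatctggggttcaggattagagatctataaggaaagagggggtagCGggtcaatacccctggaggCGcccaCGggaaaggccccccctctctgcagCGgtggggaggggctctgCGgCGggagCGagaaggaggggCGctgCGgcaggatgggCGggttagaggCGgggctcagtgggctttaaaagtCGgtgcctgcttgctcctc

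The outer sequence holds 7 CpG dinucleotides and the inner one 14, and within their 300-base windows the motif had 0 and 2 matches. The arrays do not tell transcripts of these starts apart, and a match is a description of the letters only.

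**Figure D1:**
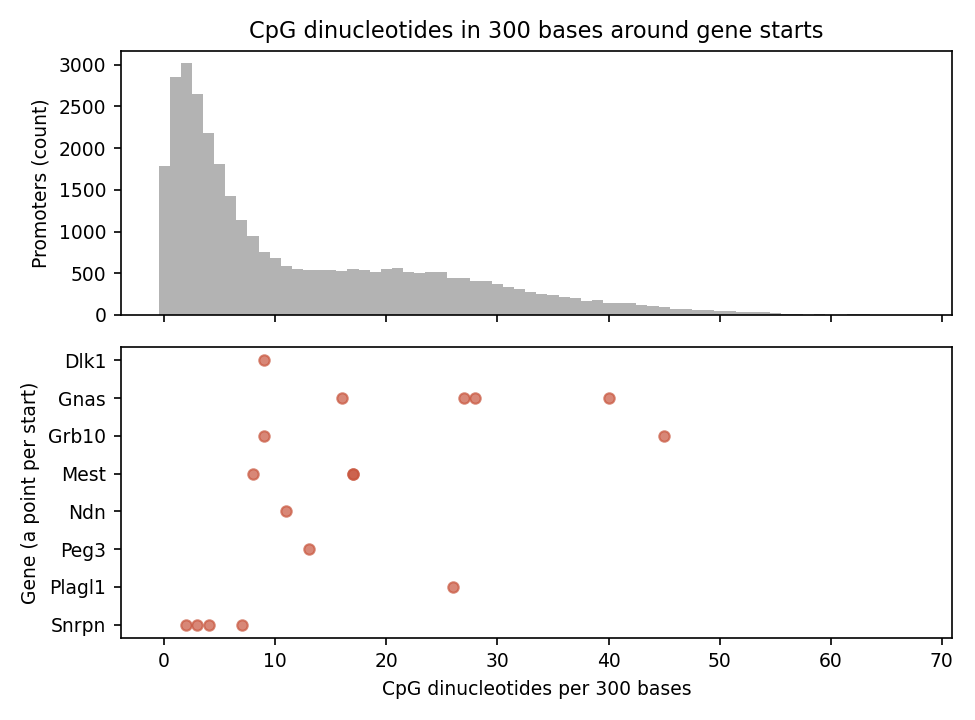
Upper panel: number of RefSeq promoters (count, linear axis) by CpG dinucleotides per 300 bases. Lower panel: the same scale for the genes of the set, with a point per start. The starts of Snrpn lie between 2 and 7 CpG dinucleotides, and the richest start of Grb10 has 45.

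Of the 7 measured genes, 6 were above background in crypts: Dlk1, Impact, Mest, Ndn, Sgce and Snrpn. A probe counted as above background where its Cy3 signal lay above 95 percent of the 314 negative controls on its own array, a limit of 439.2 to 448.7. All 10 probes of these 6 genes passed on all 6 arrays, as did 91.4% of the 41006 probes. The share of passing probes in the set is therefore near that of the array as a whole. In the microdissected tissue, fewer expressing cells and less RNA per cell cannot be told apart.

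Plagl1, a zinc finger transcription factor that restrains cell proliferation, was the gene not above background. Its Cy3 signals were 438.2, 431.4 and 432.5 in LOI(-) and 428.4, 432.7 and 425.4 in LOI(+) crypts, below the negative control limit on 6 of 6 arrays. Its Cy5 signals, 383.0 to 392.5, were also below the Cy5 limit on all 6 arrays, so its ratios compare signals of the size of the negative controls, and no fold against the reference is given.

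Several of the passing probes were only just above the limit. Mest probe 3 had Cy3 signals from 452.5 to 469.8 and was above the 99th percentile of the negative controls on 5 of 6 arrays, whereas the other 9 were above it on all 6. Sgce lay at 460.3 to 483.9, Impact probe 2 at 466.7 to 510.0 and Snrpn probe 2 at 473.4 to 491.0. Mest probe 1 (1124.8 to 1618.3), Snrpn probe 1 (821.3 to 1076.4) and Impact probe 1 (689.1 to 847.0) stood well clear of it. Signals of different probes are compared here with the background limit and not with each other.

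Crypts differed from the cell line reference at 7 of the 11 probes, with Dlk1 and Sgce lower, and Impact lower and Snrpn higher by only the first of their 2 probes. Levels relative to the reference are log2 of Cy3 over Cy5 after background correction and an intensity-dependent dye correction (loess), so a ratio need not follow the raw signals. In limma, with Benjamini-Hochberg adjustment over all probes and a threshold of 0.05, 6 probes were lower and 1 higher in LOI(-) crypts than in the reference. Over the whole array 54.0% of probes passed this test, 28.7% lower and 25.4% higher. In LOI(+) crypts 7 probes passed, 2 of them higher, with 50.7% over the array, and 6 probes passed in both groups. Without LOI(-) 3 the count for LOI(-) crypts was 4. The reference is one RNA pool without replicates of its own, and with crypt RNA always in Cy3 these ratios are open to dye bias.

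Dlk1 encodes a membrane protein with EGF-like repeats that is abundant in fetal tissues and preadipocytes. Its log2 ratios were -4.02, -3.81 and -3.89 in LOI(-) and -4.01, -3.93 and -3.69 in LOI(+) crypts. All 6 values were the lowest of the set on their arrays. The reference was 15.0-fold above LOI(-) crypts (mean log2 ratio -3.91 ± 0.11 (SD, n = 3), limma adjusted p = 3.94e-08) and 14.7-fold above LOI(+) crypts (-3.88 ± 0.17 (SD, n = 3), limma adjusted p = 4.14e-08). The crypt signals, 532.0 to 573.7, stood little above the negative controls, and the size of the fold depended on how background was treated. The mean LOI(-) log2 ratio was -2.54 without background correction.

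Impact encodes an inhibitor of the GCN2 kinase that protects translation during amino acid shortage, and it is imprinted in rodents. Probe 1 had log2 ratios of -1.71, -1.83 and -1.66 in LOI(-) and -1.52, -1.62 and -1.59 in LOI(+) crypts. By this probe the reference was 3.32-fold above LOI(-) crypts (limma adjusted p = 2.3e-07) and 2.99-fold above LOI(+) crypts (adjusted p = 3.35e-07). Probe 2 gave 0.15, 0.18 and 0.03 in LOI(-) and 0.28, 0.21 and 0.13 in LOI(+) crypts. The 2 probes of Impact therefore disagreed on the crypt level relative to the reference, one well below it and one near it. The signals of probe 2 were near the negative controls in both channels, with Cy5 at 433.5 to 507.1. Its LOI(-) mean did not pass against the reference (adjusted p = 0.0742; 0.00039 at a log2 ratio of 0.47 with each array centred on its median), while its LOI(+) mean did (0.21 ± 0.074 (SD, n = 3), limma adjusted p = 0.0105).

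Sgce, epsilon-sarcoglycan of the dystrophin-associated complex, had log2 ratios of -0.53, -0.46 and -0.45 in LOI(-) and -0.46, -0.41 and -0.43 in LOI(+) crypts. The reference was 1.40-fold above LOI(-) crypts (limma adjusted p = 4.49e-05) and 1.35-fold above LOI(+) crypts (adjusted p = 7.73e-05). The crypt signals were near the background limit, and the size of this value depended on how background and dyes were treated. The mean LOI(-) log2 ratio was -0.14 without background correction, -0.24 with median centring and -0.74 with a normexp offset of 10, and it passed in each.

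Snrpn and Ndn lie in the imprinted region that corresponds to the human Prader-Willi region, on mouse chromosome 7. Snrpn encodes SmN, a core protein of splicing particles that is abundant in brain and heart. Its probe 1 gave 0.22, 0.36 and 0.70 in LOI(-) and 0.37, 0.68 and 0.59 in LOI(+) crypts. This was the one probe called higher in crypts than in the reference in both groups, by 1.34-fold in LOI(-) (limma adjusted p = 0.00895) and 1.46-fold in LOI(+) (adjusted p = 0.00295). With each array centred on its median in place of loess, the LOI(-) call was lost (log2 ratio 0.14, adjusted p = 0.214). It was also lost in a test per probe without limma's moderation (adjusted p = 0.0508). Before normalization the Cy3 signal of this probe was below its Cy5 signal on each array, as with 821.3 against 894.0 in LOI(-) 3. Snrpn probe 2 gave -0.14, -0.15 and 0.10 in LOI(-) and -0.14, -0.07 and -0.03 in LOI(+) crypts and did not pass (LOI(-) adjusted p = 0.379). The higher Snrpn level therefore rests on 1 of its 2 probes. Ndn encodes necdin, a MAGE family protein of neurons that restrains cell division. It gave -0.16, -0.30 and -0.26 in LOI(-) and -0.28, -0.40 and -0.13 in LOI(+) crypts. The reference was 1.18-fold above LOI(-) crypts for Ndn (limma adjusted p = 0.011), and this call was lost without LOI(-) 2 (adjusted p = 0.0623) or LOI(-) 3 (0.0543).

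Mest, a hydrolase-fold enzyme of embryonic mesoderm, was close to the reference. Probe 1, its brightest, gave -0.08, -0.12 and -0.06 in LOI(-) and -0.10, -0.11 and -0.06 in LOI(+) crypts. Its LOI(-) mean of -0.085 ± 0.027 (SD, n = 3) did not pass against the reference (limma adjusted p = 0.0889), but with each array centred on its median it did (-0.48, adjusted p = 4.75e-05). Probe 2, which overlaps probe 1, gave -0.18, -0.04 and -0.16 in LOI(-) and -0.13, -0.13 and -0.09 in LOI(+) crypts. Its LOI(-) mean passed narrowly (adjusted p = 0.0432) and its LOI(+) mean did not (adjusted p = 0.0577). The LOI(-) call was lost without LOI(-) 1, LOI(-) 3, LOI(+) 1, LOI(+) 2 or LOI(+) 3 (adjusted p from 0.0604 to 0.186). It was also lost with an offset of 10, Agilent's processed signals, the deposited value table, the replicate block and only the mice labelled male (adjusted p = 0.0697, 0.0785, 0.0722, 0.0846 and 0.218). Probe 3 gave -0.27, -0.15 and -0.30 in LOI(-) and -0.47, -0.43 and -0.21 in LOI(+) crypts, and it passed in both groups (adjusted p = 0.0138 and 0.00203). The direction of probe 3 in LOI(-) crypts turned with the median centring, to 0.13 (limma adjusted p = 0.134). Its call was also lost without LOI(-) 1 (limma adjusted p = 0.0692) or LOI(-) 3 (0.0754), and with only the mice labelled male (0.0965).

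**Figure D2:**
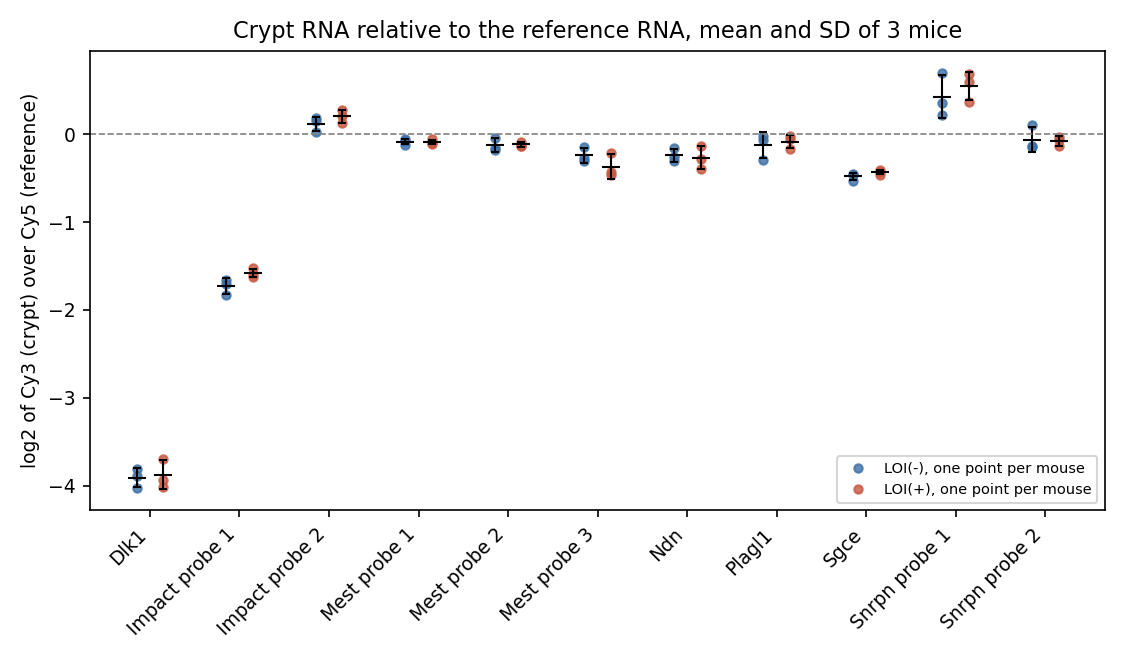
Log2 of Cy3 (crypt) over Cy5 (reference) for the 11 probes, after background correction and loess. Each point is one mouse, horizontal ticks are means and bars are SD of 3 mice per group. The dashed line marks equal signal after these corrections, not equal raw signal. Dlk1 and Impact probe 1 stand below the reference in all 6 mice, Snrpn probe 1 stands above it, and the groups overlap at every probe except Impact probe 1.

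No difference between LOI(+) and LOI(-) crypts passed the test at any probe of the set. In limma 0 of 11 passed at an adjusted p of 0.05, as did 0.0% of the 41006 probes, so the set does not stand apart from the array in this. At an unadjusted p under 0.05 the count was 0 of 11, where 6.11% of all probes lay, and 1 of 11 without LOI(-) 3 or without LOI(+) 3. The adjusted p-values of the set ran from 0.823 to 0.993, and the smallest over the whole array was 0.808. Differences, LOI(+) minus LOI(-) on the log2 scale, ran from -0.13 to 0.15, and 8 of 11 were within 0.1 of 0. Of the 11, 7 were above 0 and 4 below, with a median of 0.030 beside 0.0023 over all probes. The median SE was 0.083, close to the 0.078 over all probes. The 95% intervals of the 11 probes reached from -0.33 to 0.45, so the largest change in the normalized ratios that any of them still allowed was 1.37-fold. This bound belongs to the main background setting and does not limit the change in RNA at probes near the negative controls. With a normexp offset of 10, Mest probe 3 differed by -0.21 ± 0.14 (SE) and Plagl1, which was below background, by 0.13 ± 0.23. Without background correction they differed by -0.025 ± 0.021 and 0.007 ± 0.017. A p that misses the threshold does not show that the levels were equal, and with 3 mice per group the number of arrays limits the precision.

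Impact probe 1 was the one probe whose groups did not overlap, with all 3 LOI(+) mice above all 3 LOI(-) mice. Of the probes measured on all 6 arrays, 6.26% had every LOI(+) value above every LOI(-) value, 5.04% had every LOI(+) value below, and 11.3% did not overlap in either direction. The difference was 0.15 ± 0.067 (SE; 95% interval -0.0072 to 0.31; limma adjusted p = 0.823). Probe 2 of Impact differed by 0.086 ± 0.069 (95% interval -0.076 to 0.25; adjusted p = 0.859), with overlapping groups. The probe 1 difference was 0.042 without background correction and 0.040 with scale normalization between arrays. Marker lists of cell types were set beside this. Mean log2 ratios of the groups overlapped for the crypt epithelium, fibroblast, endothelium, neuron and glia, and enteroendocrine lists. The fibroblast list, for one, was at -1.85 to -1.7 in LOI(-) and -1.91 to -1.76 in LOI(+) crypts. The immune and smooth muscle lists are given because their groups did not overlap. The mean log2 ratio of 8 immune markers was 0.44 to 0.56 in LOI(-) and 0.20 to 0.38 in LOI(+) crypts, and that of 8 smooth muscle markers was -0.36 to -0.23 and -0.50 to -0.39. Their part in the Impact values was not tested. All 8 immune markers were above the negative controls on every array, with a summed Cy3 signal of 39.7 to 112.0 array medians in LOI(-) and 32.3 to 66.1 in LOI(+) crypts. Of the 8 smooth muscle markers, 6 were above them on all arrays and Lmod1 on none, and the list summed to 15.1 to 17.7 and 14.8 to 16.0 array medians.

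The growth regulator Dlk1 differed by 0.030 ± 0.099 (95% interval -0.20 to 0.27; limma adjusted p = 0.971). Its sign turned to -0.23 when the spread of ratios was made equal between arrays, and to -0.083 without background correction. Snrpn probe 1 differed by 0.12 ± 0.14 and had the widest interval of the set, -0.21 to 0.45 (adjusted p = 0.900). Its values in LOI(-) mice spanned 0.22 to 0.70, which covers those of 3 of 3 LOI(+) mice. The difference was 0.018 without LOI(-) 1, 0.26 without LOI(-) 3, 0.21 without LOI(+) 1 and 0.053 without LOI(+) 2. Snrpn probe 2 differed by -0.014 ± 0.082 (adjusted p = 0.984), and Ndn, from the same region, by -0.027 ± 0.082 (adjusted p = 0.969). Neither gene of this region showed a difference beyond the spread between mice.

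The 3 Mest probes differed by -0.0043 ± 0.052, 0.0085 ± 0.061 and -0.13 ± 0.087 in the order of their numbers (limma adjusted p = 0.993, 0.989 and 0.839). Probe 3 was at -0.025 without background correction and at -0.21 with an offset of 10 or without LOI(+) 3. The interval of probe 1, -0.13 to 0.12, was the narrowest of the set. Sgce differed by 0.050 ± 0.054 (95% interval -0.078 to 0.18; adjusted p = 0.894), with overlapping groups. Plagl1, below background, differed by 0.043 ± 0.087, which is no measure of a change in its level.

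**Figure D3:**
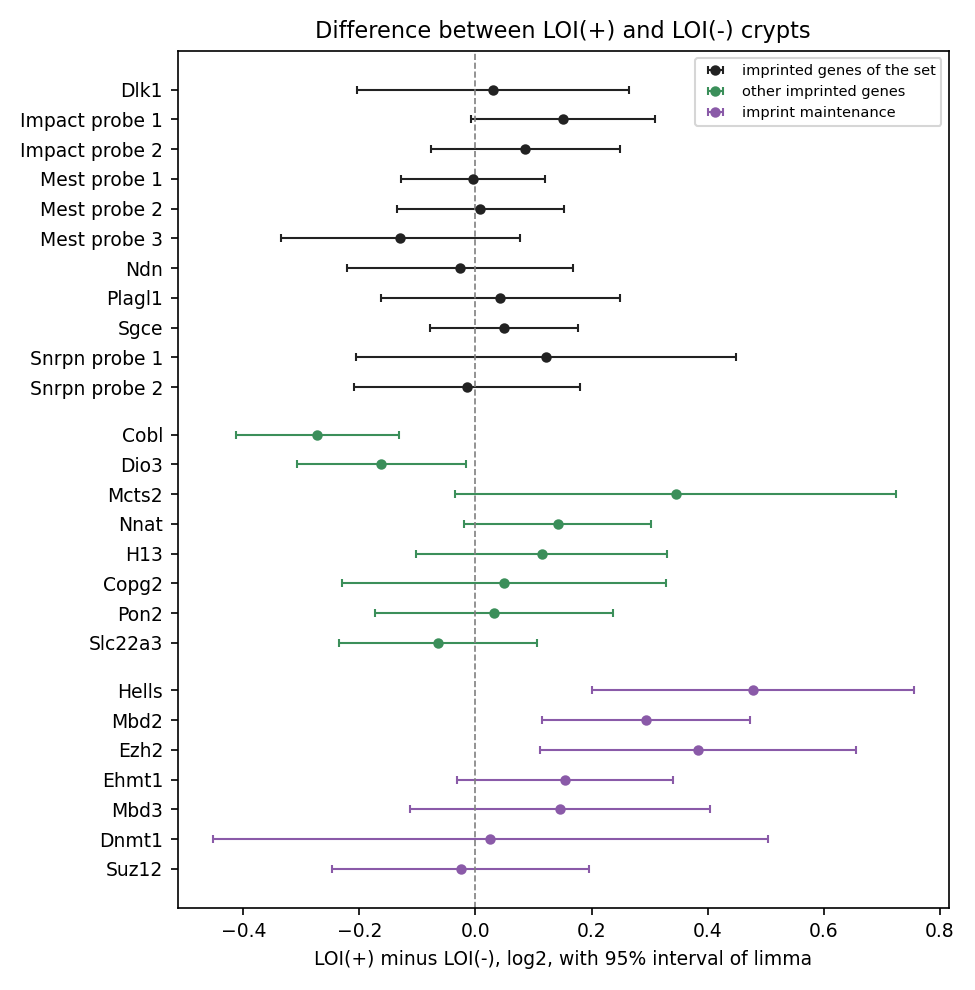
LOI(+) minus LOI(-) difference on the log2 scale with limma's 95% interval for the 11 probes of the set (black), and for genes named by rule from the other imprinted genes (green) and the genes of imprint maintenance (purple), 1 probe per gene. Every interval of the set includes 0; the first 4 genes of the green and the first 4 of the purple list were picked for the smallest p-values of their lists, and none passed after adjustment.

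Other imprinted genes outside the Igf2 cluster showed no called difference either. Of 49 listed, 31 had a probe, 28 of them above the negative controls on all 6 arrays. Of their 37 probes 0 passed in limma, and at an unadjusted p under 0.05 there were 0 higher and 3 lower, beside 3.82% and 2.3% of all probes. The count in either direction was 6 without LOI(+) 1 and 1 without LOI(+) 3. The median difference was 0.022. Cobl, an actin nucleator, had the smallest p at -0.27 ± 0.060 (limma adjusted p = 0.808). Its log2 ratio was 1.94 ± 0.073 (SD, n = 3) in LOI(-) and 1.67 ± 0.020 (SD, n = 3) in LOI(+) crypts, without overlap. Dio3, the deiodinase that inactivates thyroid hormone, differed by -0.16 ± 0.062 (limma adjusted p = 0.808). The Cy3 signals of Dio3, 454.7 to 499.8, were near the negative control limit. Mcts2, a gene copy within an intron of H13, differed by 0.35 ± 0.16 at its brighter probe and 0.24 ± 0.19 at the other, and Nnat, a small membrane protein of brain and endocrine cells, by 0.14 ± 0.068 (adjusted p = 0.823 for the brighter Mcts2 probe and for Nnat). Whether the Mcts2 probes also read its source gene was not tested.

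The brightest genes of that list differed little. H13, a signal peptide peptidase, was at 0.11 ± 0.091, and Copg2, a coat protein of transport vesicles, at 0.049 ± 0.12 by its brighter probe. The other Copg2 probe was at -0.084 ± 0.058, with all LOI(+) values below all LOI(-) values. Pon2, a paraoxonase, differed by 0.031 ± 0.087 at its brighter probe and -0.070 ± 0.14 at the other. The Pon2 probes disagreed on the level against the reference, with LOI(-) crypts 3.22-fold above it by the brighter probe and 1.01-fold by the other (limma adjusted p = 8.52e-07 and 0.879). Slc22a3, an organic cation transporter, was at -0.064 ± 0.072. Of the 37 probes, 11 were higher and 12 lower in LOI(-) crypts than in the reference, beside 25.4% and 28.7% of all probes.

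Genes that set, protect or read methylation imprints were examined in the same fit. Of 27 listed, 19 had a probe, and 18 of these were above the negative controls on all arrays. Of 24 probes 0 passed in limma, and at an unadjusted p under 0.05 there were 4 higher and 0 lower, where 3.82% of all probes were higher. With only the 4 mice labelled male the count in either direction was 7. The median difference of the list was 0.015. Hells, a chromatin remodeller needed for DNA methylation, differed by 0.48 ± 0.12 (adjusted p = 0.808 in limma). Ezh2, the methyltransferase of Polycomb complex 2, differed by 0.38 ± 0.12 and Mbd2, a reader of methylated DNA, by 0.29 ± 0.076. None of these 3 probes passed after adjustment. Every LOI(+) value was above every LOI(-) value at 4 of the 24 probes, these 3 among them, and below at 0, beside 6.26% and 5.04% of all probes. Ehmt1, a histone H3 methyltransferase, differed by 0.15 ± 0.079 with overlap. Among the brightest, Dnmt1, the enzyme that copies methylation at replication, was at 0.025 ± 0.20, Suz12, a partner of Ezh2, at -0.026 ± 0.094 and Mbd3, a subunit of a nucleosome remodelling complex, at 0.15 ± 0.11 by its brighter probe and -0.031 ± 0.14 by the other. Zfp57 and other list genes without a probe were not analysed here.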

How the data were processed

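The array files hold mean spot signals and local backgrounds as intensity. Per the file headers, the authors extracted them with Agilent Feature Extraction (version 7.5.1). Per the labels, crypt RNA was Cy3 and the reference Cy5. A deposited value table, not labelled with a scale, matched log10 Cy3 minus log10 Cy5 plus mean log10 Cy5 of each array (r 0.9984 to 0.9997 across features), with a column median of 2.9 in each array. Probes were named through RefSeq accessions (GRCm38.p6 table), which named 15429 of 41006 (37.6%).

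In R 4.3.3 with limma 3.58.1, signals were background-corrected (normexp, offset 50) and loess-normalized within arrays, with control features at weight 0 and outlier-marked spots left out. The spots of a probe were averaged. log2 of Cy3 over Cy5, computed here from the deposited intensities, was fitted over all probes (lmFit, eBayes; two-sided, Benjamini-Hochberg, 0.05) with both groups in one model. Each array is a separate mouse, per the labels. The fit was checked on simulated data. Alternatives changed the background correction, normalization, values used, filter on dim probes, probes per gene, moderation, block and mice included.

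The members and gene lists were chosen with earlier results of these data known. All probes of the set are named; of the other 2 gene lists the 4 genes of smallest p and the 4 of highest mean Cy3 signal, by each gene's brightest probe.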

Additional observations from a re-analysis of the deposited data

How the results depend on the processing

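The counts of 0 probes called between LOI(+) and LOI(-) crypts held for the set, the other imprinted genes and the imprint maintenance genes under each alternative run, and 6 genes of the set stayed above the negative controls under all 3 alternatives for that limit. The number of probes called in LOI(-) crypts against the reference, 7, was 4 to 6 when 1 array was left out, with 4 without LOI(-) 3. That number was 5 with only the 4 mice labelled male, 8 without background correction and 9 with median centring. The median difference over the set, 0.030, became 0.078 with a normexp offset of 10, -0.013 with median centring and 0.0003 with scale normalization, and ran from -0.0056 (without LOI(+) 3) to 0.053 when 1 array was left out. Impact probe 1, Mest probe 3 and Snrpn probe 1 kept their sign in each alternative but not their size (0.040 to 0.21, -0.21 to -0.025 and 0.018 to 0.26), and no difference passed in any. The others, all small, changed sign at least once. Dlk1 was at -0.083 without background correction and -0.23 with scale normalization. Mest probe 1 was at 0.0023 without background correction, and Sgce at -0.0009. With median centring the difference was -0.016 for Impact probe 2, 0.039 for Mest probe 1, -0.013 for Plagl1 and -0.036 for Sgce. With only the 4 mice labelled male it was 0.016 for Mest probe 1, -0.0017 for Mest probe 2, 0.025 for Ndn and 0.062 for Snrpn probe 2. Leaving out 1 array, it ran from -0.063 to 0.10 for Dlk1, -0.020 to 0.0066 for Mest probe 1, -0.020 to 0.053 for Mest probe 2, -0.10 to 0.036 for Ndn, -0.040 to 0.10 for Plagl1 and -0.056 to 0.067 for Snrpn probe 2. Against the reference, median centring turned Mest probe 3 to 0.13, Plagl1 to 0.63 and Snrpn probe 2 to 0.22. The causes of these changes were not tested.

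Replicate numbers are shared by the groups. Same-numbered mice did not deviate together for numbers 1 and 2 (r across probes -0.084 and -0.251). The mice of number 3 did so in part (r = 0.349), and only number 3 correlated best with its own number. With the replicate number as a block, 0 probes of the set were called between the groups and 6 in LOI(-) crypts against the reference. Precision is limited by 3 mice per group, and the dimmest probes lie just above the negative controls.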
